A study of Mus musculus with 3 samples.

Results

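Vim, Fn1, Lgals1, Fbn1 and Cdh2 were taken by name from the gene annotation and followed in single cells of mouse mammary tumours kept in 2 kinds of gel. They are 5 of the 20605 genes of the table. Vim encodes vimentin, the intermediate filament protein of mesenchymal cells. Fn1 encodes fibronectin, a secreted glycoprotein that cells assemble into fibrils and bind through integrins. Lgals1 encodes galectin-1, a small lectin that binds beta-galactosides on glycoproteins inside and outside the cell. Fbn1 encodes fibrillin-1, the main building block of the microfibrils that hold elastin and latent TGF-beta. Cdh2 encodes N-cadherin, the calcium-dependent adhesion protein of neurons and many mesenchymal cells.

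Vim, Fn1 and Cdh2 are often read together as a record of epithelial-mesenchymal transition (EMT), and Lgals1 and Fbn1 are followed beside them here. In that change epithelial cells lose E-cadherin junctions and keratin filaments, take up vimentin filaments and N-cadherin, and deposit fibronectin-rich matrix. Carcinoma cells often make the change in part, so that vimentin or fibronectin is found beside keratins in 1 cell. Vimentin is also abundant in fibroblasts, macrophages and lymphocytes, so its level in tumour tissue depends on which cells are counted.

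The tumours came from 4 C3(1)-Tag mice of strain FVB, aged 25 to 30 weeks, with primary mammary tumours of 20 mm, taken as fresh tissue and not passaged. In this model a promoter fragment of the C3(1) gene drives a viral large T antigen in epithelium, mammary gland included. Tumour pieces were grown as organoids in collagen I or as clusters in Matrigel, a basement membrane gel, and both gels were given DMEM/F12 with ITS and 2.5 nM FGF2. Cells were collected at day 0, which was 12 hours after plating, at day 3 and at day 5. Collagen cultures were released with 2 mg/ml collagenase at 37 °C and Matrigel cultures with 10 mM EDTA on ice, so the gel and the way of release cannot be told apart. Each day was sequenced as 1 pool with its own batch number, so day and pool cannot be told apart either. Cells of 4T1, an established mouse mammary carcinoma line grown on plastic in RPMI with serum and used at passage 2, were added to every pool. They carry no gel and served as the reference.

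In the GRCm38 build with the GENCODE vM21 annotation, Vim lies on chromosome 2, from 13573927 to 13582826 on the plus strand, and Lgals1 on chromosome 15, from 78926725 to 78930465 on the plus strand. Neither overlaps another annotated gene. Fn1 lies on chromosome 1, from 71585520 to 71653200 on the minus strand, and overlaps Apol7d on the plus strand. Fbn1 lies on chromosome 2, from 125300594 to 125507993 on the minus strand, and overlaps Gm9913 on the plus strand. Cdh2 is on the minus strand of chromosome 18. The values are whole-gene counts of unique molecular identifiers (UMIs), which count captured molecules near the 3′ ends.

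The table held 7620 cells, 313 of them 4T1 and 7307 with a mouse label, with 2961, 3463 and 1196 cells and 60391888, 140869562 and 68725854 UMIs at day 0, day 3 and day 5. Clustering without the 5 genes gave 24 clusters. Clusters led by macrophage, fibroblast or T and NK cell markers (226, 81 and 29 cells) were left out. The remaining cells were summed per mouse, gel and day, and 21 sums of at least 20 cells were compared, holding 38 to 1148 cells and 1831436 to 46657709 UMIs each. There were 4 mice per gel at day 0 and day 3, and at day 5 there were 3 mice in collagen and 2 in Matrigel, because mouse 4 had no day 5 cells and mouse 1 had only 13 in Matrigel. Levels are given in CPM, the UMIs of a gene scaled to a fixed total of UMIs in its sum. Median UMIs per cell ran from 4330 to 24900 at day 0, from 26083 to 49470 at day 3 and from 52656 to 60985 at day 5 over both gels. Epithelial markers summed to between 4066 and 8243 CPM in the 21 sums, so the labelled tumour epithelium was present in each.

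Before the levels are read, 56 of the mouse-labelled cells have to be described. They fell into the cluster that held 310 of the 313 4T1 cells, and 45 of the 56 had more UMIs than the 95th percentile of their day. At day 0 their median was 86855.5 UMIs, against 15383 in the other kept cells. Of the 56, 42 were day 0 cells, 26 of them in collagen and 16 in Matrigel. In those 42 cells Vim stood at 4083 CPM and Lgals1 at 7137 CPM, while Fn1 was at 256 CPM, Fbn1 had 1 UMI and Cdh2 none. These cells are called 4T1-led below. Whether they are 4T1 cells with a mouse label, doublets or tumour cells was not tested.

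The 4T1-led cells held most of the Vim and Lgals1 molecules at day 0. In collagen they were 2.77% of the cells and held 76.2% of the Vim UMIs, 66.7% of the Lgals1 UMIs and 7.42% of the Fn1 UMIs. In Matrigel they were 0.94% of the cells and held 68.7%, 62.8% and 3.19%. By mouse, their share of day 0 Vim UMIs lay between 56.6% and 95.7% in collagen and between 59.5% and 80.8% in Matrigel. Later they weighed little in the pooled groups, with at most 2.01% of the Vim UMIs and 4.39% of the Lgals1 UMIs at day 3 and day 5, although they held 27.0% of the Vim UMIs of mouse 1 in Matrigel at day 3. The results on Vim and Lgals1 that rest on these cells are therefore given with and without them. For Fn1, Fbn1 and Cdh2 the values below are those of all kept cells unless said otherwise, and leaving out the 4T1-led cells changed none of their calls between gels or days, with or without the mouse block.

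**Figure D1:**
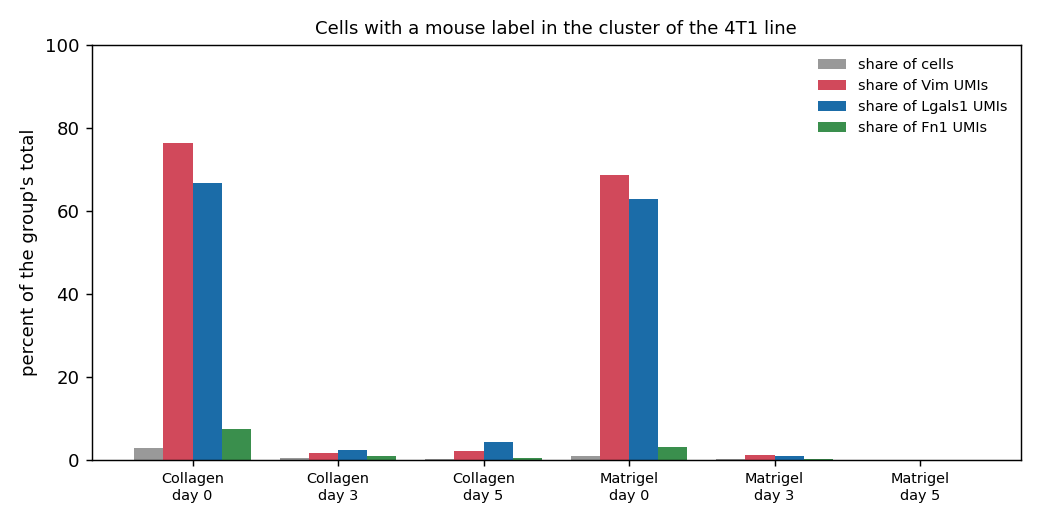
Bars give the percent of each group's cells, and of its Vim, Lgals1 and Fn1 UMIs, that lie in mouse-labelled cells of the 4T1-led cluster, by gel and day over pooled mice. At day 0 in collagen 2.77% of the cells held 76.2% of the Vim UMIs, and by day 3 and day 5 no Vim bar passes 2.01%.

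Vim, whose filament protein gives mesenchymal cells their tensile strength, was higher in collagen than in Matrigel at day 0 when all kept cells were summed. Its levels in collagen were 561, 688, 360 and 1455 CPM in mice 1 to 4, and in Matrigel 188, 268, 96.9 and 268 CPM. All 4 collagen values lay above all 4 Matrigel values. The difference was 3.73-fold (log2 1.90 ± 0.48 SE, edgeR quasi-likelihood test with Benjamini-Hochberg adjustment over 13184 genes, adjusted p = 0.0221). Vim, Lgals1 and Fbn1 passed at this time, 3 of the 5 genes, where 7.07% of all genes tested did. With the mouse as a block 24.3% of all genes passed, and the same 3 of 5, Vim with an edgeR adjusted p of 0.00367.

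When the 4T1-led cells were left out, the day 0 difference in Vim was smaller and no longer passed. The collagen values became 263, 86.7, 150 and 83.6 CPM and the Matrigel values 77.6, 54.6, 36.5 and 93.4 CPM. The groups then overlapped, since mouse 4 in Matrigel was above mice 2 and 4 in collagen. The fold was 2.24 (log2 1.16 ± 0.46 SE, edgeR adjusted p = 0.138), and with the mouse block 2.15 (edgeR adjusted p = 0.0582). Lgals1 and Fbn1 still passed, 2 of 5 genes, where 6.49% of all genes did, or 24.4% with the block. With the 4T1-led cells kept, leaving out any 1 of the 4 mice also ended the Vim call, with edgeR adjusted p between 0.0508 and 0.147.

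At day 3 and day 5 the collagen means of Vim were again several times the Matrigel means, and here the 4T1-led cells made little difference. At day 3 the collagen values were 1217, 633, 255 and 400 CPM and the Matrigel values 114, 225, 207 and 142 CPM, so mouse 1 was highest in collagen and lowest in Matrigel, and the groups did not overlap. At day 5 mice 1 to 3 had 1707, 893 and 751 CPM in collagen, and mice 2 and 3 had 284 and 190 CPM in Matrigel. Neither difference passed without the mouse block: day 3 was 3.63-fold (log2 1.86 ± 0.48 SE, edgeR adjusted p = 0.133) and day 5 was 4.70-fold (log2 2.23 ± 0.65 SE, edgeR adjusted p = 0.131). In these fits 0 of 5 genes passed at either day, where 0.205% and 0.455% of all genes did. At each day 4 of the 5 had an unadjusted p under 0.05, where 1301 and 1586 of all 13184 genes did. DESeq2 called Vim alone at day 3, where it called 180 of 13151 genes. At day 5 it called Vim and Fn1, where it called 264 of 12644 genes.

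With the mouse as a block, which compares the gels within animals, both later differences passed. Vim was then 3.14-fold higher in collagen at day 3 (log2 1.65 ± 0.42 SE, edgeR adjusted p = 0.0318) and 4.07-fold higher at day 5 (log2 2.02 ± 0.57 SE, edgeR adjusted p = 0.0412). Vim, Fn1 and Fbn1 passed at both days, 3 of 5 genes, where 4.38% and 6.28% of all genes did. Leaving out the 4T1-led cells as well, 4 of 5 passed at both days, Lgals1 being the added gene, where 4.87% and 6.71% of all genes did. Vim then had edgeR adjusted p values of 0.0249 and 0.0470.

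**Figure D2:**
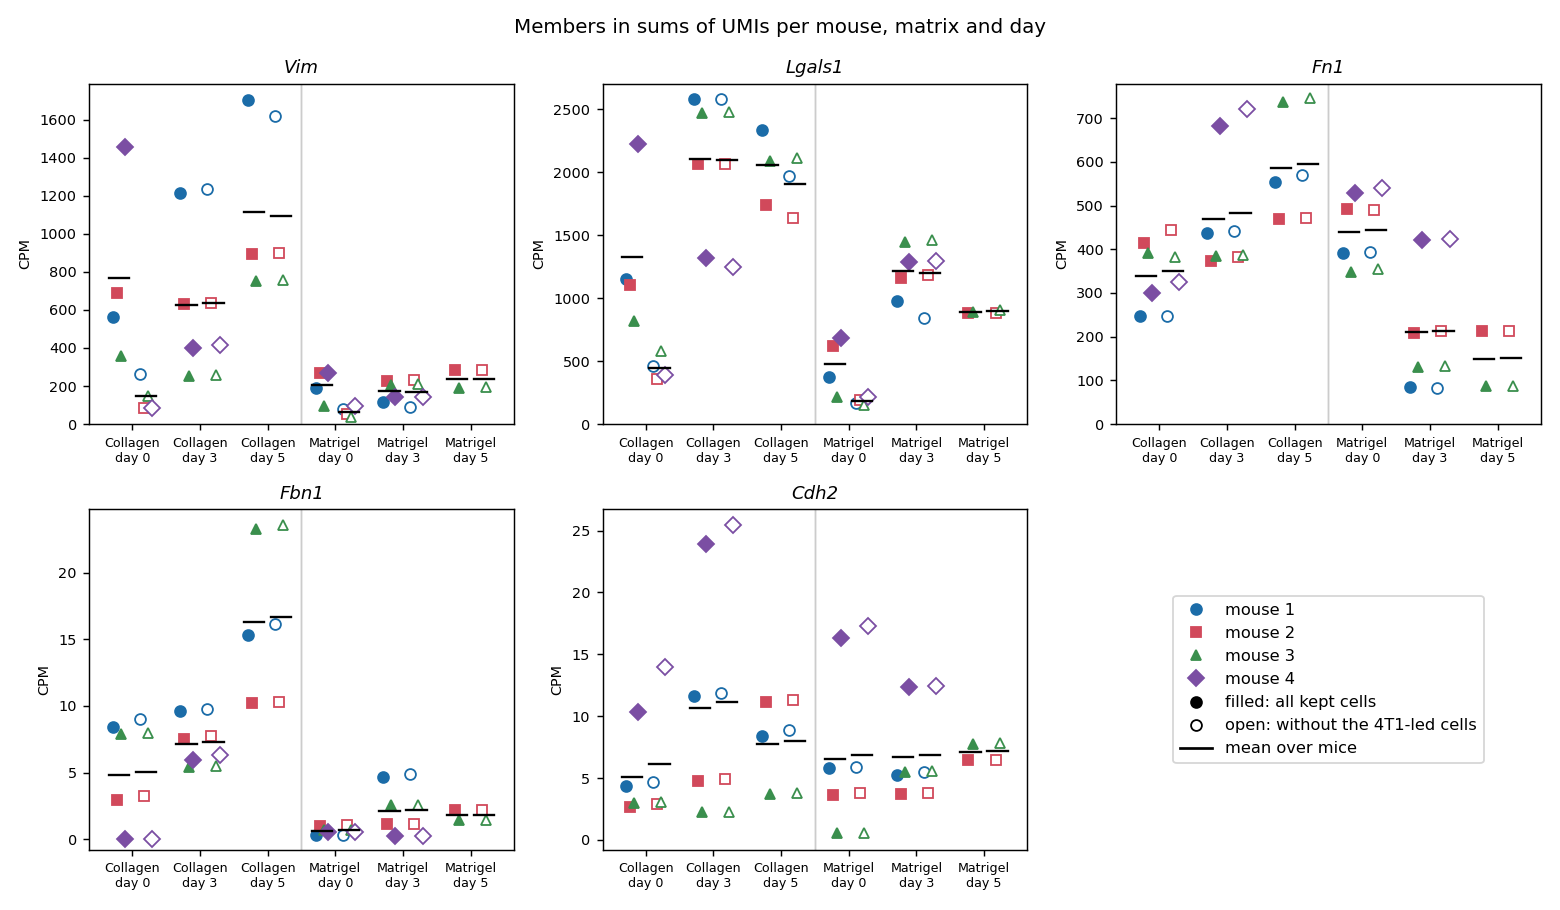
Each panel plots 1 of the 5 genes as CPM (linear axis) for every sum, by gel and day, with 1 marker per mouse, filled for all kept cells and open without the 4T1-led cells. Filled and open markers of Vim and Lgals1 stand far apart at day 0 and close together later, and Vim at day 3 ran from 255 to 1217 CPM in collagen and from 114 to 225 CPM in Matrigel.

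Over time, whether Vim rose depended on the same cells. With all kept cells Vim in collagen averaged 766 ± 479 CPM (SD, n = 4) at day 0, 626 ± 424 CPM (SD, n = 4) at day 3 and 1117 ± 516 CPM (SD, n = 3) at day 5. No Vim change from day 0 passed in either gel. Without the 4T1-led cells the day 0 mean was 146 ± 84.0 CPM (SD, n = 4) in collagen and 65.5 ± 25.1 CPM (SD, n = 4) in Matrigel. Against it, Vim rose 4.34-fold by day 3 in collagen (log2 2.12 ± 0.47 SE, edgeR adjusted p = 0.00353) and 7.44-fold by day 5 (log2 2.90 ± 0.50 SE, edgeR adjusted p = 0.00153). In Matrigel it rose 2.56-fold by day 3 (log2 1.36 ± 0.46 SE, edgeR adjusted p = 0.0267) and 3.66-fold by day 5 (log2 1.87 ± 0.54 SE, edgeR adjusted p = 0.0130).

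These rises depended on single mice. Without mouse 2, which gave the most collagen cells at day 3, the rise of Vim in collagen no longer passed at day 3 (edgeR adjusted p = 0.0714) or day 5 (edgeR adjusted p = 0.0644). In Matrigel the day 3 rise was lost without mouse 2 (edgeR adjusted p = 0.202) or mouse 3 (edgeR adjusted p = 0.169), and the day 5 rise without mouse 2 (edgeR adjusted p = 0.237) or mouse 3 (edgeR adjusted p = 0.0877). The direction stayed upward in each of these fits. The change of the gel difference in Vim from day 0 to day 3 did not pass with all kept cells (log2 -0.04 ± 0.65 SE, edgeR adjusted p = 0.992) or without the 4T1-led cells (log2 0.76 ± 0.65 SE, edgeR adjusted p = 0.773).

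Counted over the 5 genes, the changes from day 0 to day 3 and day 5 in collagen passed for 0 of 5 genes with all kept cells, where 19.6% and 8.37% of all genes did. Of the 5, 1 gene had an unadjusted p under 0.05 at each step, Lgals1 by day 3 and Fbn1 by day 5, where 4288 and 3156 of 13184 genes did. DESeq2 called none of the 5, where it called 2999 and 1665 of 13151 genes. Without the 4T1-led cells 2 of 5 passed at each step, Vim and Lgals1, where 20.4% and 10.2% of all genes did. With the block, 3 of 5 passed by day 5 in collagen, namely Fn1, Fbn1 and Cdh2, where 25% of all genes did, and with the block and without the 4T1-led cells all 5 passed, where 28.1% did. In Matrigel 2 of 5 passed by day 3, Lgals1 upward and Fn1 downward, where 39.1% of all genes did, and 1 of 5 by day 5, Fn1, where 31.6% did. The block added Lgals1 at day 5, where 45.2% of all genes passed. Leaving out the 4T1-led cells gave 3 of 5 at both steps in Matrigel, where 39.6% and 31.8% did. These shares are high, so a pass among the 5 over time says little about the 5 as a group.

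Cells of other types were measured beside these levels, because fibroblasts and macrophages also make vimentin. The left-out fibroblast-like cells had 5204 CPM of Vim and the macrophage-like cells 1554 CPM. In the kept cells the 8 fibroblast markers together ran from 27.9 to 151.1 CPM in collagen and from 24.8 to 60.6 CPM in Matrigel at day 0, from 39.0 to 166.1 and from 15.8 to 58.2 CPM at day 3, and from 98.3 to 172.1 and from 41.9 to 66.2 CPM at day 5. Of these markers Col3a1 was at 0 in collagen at day 0 and in Matrigel at day 5, and Lum was at 0 in Matrigel at day 0. None of the 5 fibroblast markers that could be tested passed between gels without the block, and with it Col1a2 and Col6a3 passed at day 3 and Col6a3 at day 5, all higher in collagen. The 11 macrophage markers summed to between 18.0 and 101.4 CPM in collagen and between 10.2 and 29.0 CPM in Matrigel at day 0. The part of these cells in the Vim difference was not tested. In sums of cells, fewer cells with a gene and less RNA per cell cannot be told apart.

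Lgals1, whose lectin is secreted and also acts in the cytoplasm, was higher in collagen than in Matrigel at day 0 with or without the 4T1-led cells. With them the collagen values were 1148, 1101, 818 and 2226 CPM and the Matrigel values 373, 623, 217 and 681 CPM. Without them they were 459, 359, 581 and 392 CPM against 166, 188, 150 and 216 CPM. Leaving them out lowered all 8 values, and the groups did not overlap in either count. The fold was 2.79 with them (log2 1.48 ± 0.32 SE, edgeR adjusted p = 0.0106) and 2.49 without them (log2 1.32 ± 0.21 SE, edgeR adjusted p = 0.00167). The first call was lost without mouse 1 (edgeR adjusted p = 0.103) or mouse 2 (edgeR adjusted p = 0.0873), and the second only without mouse 3 (edgeR adjusted p = 0.0564).

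At day 3 Lgals1 had 2580, 2063, 2474 and 1317 CPM in collagen and 976, 1163, 1449 and 1288 CPM in Matrigel. The groups overlapped, since mouse 4 in collagen lay below mouse 3 in Matrigel. At day 5 there were 2334, 1738 and 2091 CPM in collagen and 878 and 894 CPM in Matrigel, which did not overlap. Neither difference passed on all kept cells, with edgeR adjusted p values of 0.393 and 0.228 without the block and 0.134 and 0.0950 with it. Both passed with the block and without the 4T1-led cells, at 1.74-fold (log2 0.80 ± 0.20 SE, edgeR adjusted p = 0.0287) and 2.15-fold (log2 1.10 ± 0.27 SE, edgeR adjusted p = 0.0217). Without the block and without those cells both also passed when mouse 4 was left out (log2 1.02, edgeR adjusted p = 0.0330, and log2 1.10, edgeR adjusted p = 0.0244).

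Lgals1, counted without the 4T1-led cells, rose with time in both gels. By day 3 it had risen 4.68-fold in collagen (log2 2.23 ± 0.22 SE, edgeR adjusted p = 1.29e-06) and 6.66-fold in Matrigel (log2 2.74 ± 0.22 SE, edgeR adjusted p = 4.79e-08). Each of these 2 calls held when any 1 mouse was left out. With the 4T1-led cells the rise in Matrigel passed by day 3, at 2.58-fold (log2 1.36 ± 0.32 SE, edgeR adjusted p = 0.00251). With them the day 5 rise in Matrigel passed with the block (log2 1.06 ± 0.38 SE, edgeR adjusted p = 0.0315), and neither rise in collagen passed with or without it. Leaving out mouse 4, with the 4T1-led cells kept and no block, brought the rise past the threshold in Matrigel at day 5 (edgeR adjusted p = 0.00870) and in collagen at day 3 and day 5 (edgeR adjusted p = 0.00520 and 0.0236). The change of the gel difference in Lgals1 did not pass in any of these fits.

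Fn1, whose fibronectin is a ligand of the integrins Itga5 and Itgav, behaved unlike Vim and Lgals1 in that the 4T1-led cells held little of it. At day 0 the values were 247, 414, 392 and 301 CPM in collagen and 392, 493, 348 and 529 CPM in Matrigel. The groups overlapped and the difference did not pass (log2 -0.38 ± 0.37 SE, edgeR adjusted p = 0.586). At day 3 the collagen values were 437, 374, 385 and 683 CPM and the Matrigel values 84.1, 208, 131 and 421 CPM, and mouse 4 was highest in both gels. At day 5 there were 555, 469 and 738 CPM in collagen against 212 and 86.7 CPM in Matrigel, with no overlap.

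The gel difference in Fn1 passed at both later days when the gels were compared within animals. With the mouse block Fn1 was 2.40-fold higher in collagen at day 3 (log2 1.26 ± 0.30 SE, edgeR adjusted p = 0.0251) and 4.37-fold higher at day 5 (log2 2.13 ± 0.43 SE, edgeR adjusted p = 0.00931). Without the block the same differences were 2.21-fold (edgeR adjusted p = 0.265) and 3.91-fold (edgeR adjusted p = 0.0993). The day 5 difference passed without the block when mouse 4, which has no day 5 cells, was left out (edgeR adjusted p = 0.0203, or 0.0234 without the 4T1-led cells), and in DESeq2. At day 3 each of the 4 mice had more Fn1 in collagen than in Matrigel.

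The gel difference in Fn1 also changed from day 0 to the later days, which is the test of the change itself. With the block it grew by log2 1.61 ± 0.42 SE to day 3 (edgeR adjusted p = 0.0365) and by log2 2.47 ± 0.52 SE to day 5 (edgeR adjusted p = 0.00617). Fn1 was then the only 1 of the 5 genes to pass, where 5.34% and 13.7% of all genes did. Without the block 0 of 5 passed, where 0.0303% and 1.19% of all genes did. Fn1 alone of the 5 had an unadjusted p under 0.05 at each step in that fit (edgeR adjusted p = 0.277 and 0.0649), where 1434 and 2119 of 13184 genes did. DESeq2 called it for day 5, with 552 of 12137 genes called, and none of the 5 for day 3, with 164 of 11629 genes called. Without the 4T1-led cells and with the block the changes were log2 1.61 (edgeR adjusted p = 0.0343) and log2 2.47 (edgeR adjusted p = 0.00571).

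In Matrigel Fn1 fell, while in collagen its mean was higher at each later day. From 441 ± 84.8 CPM (SD, n = 4) at day 0, Fn1 in Matrigel fell 2.07-fold to 211 ± 149 CPM (SD, n = 4) at day 3 (log2 -1.05 ± 0.37 SE, edgeR adjusted p = 0.0327). By day 5 it had fallen 2.94-fold to 149 ± 88.6 CPM (SD, n = 2; log2 -1.55 ± 0.49 SE, edgeR adjusted p = 0.0220). In collagen it went from 339 ± 78.2 to 470 ± 145 CPM (SD, n = 4 each) and to 587 ± 137 CPM (SD, n = 3) without passing by day 3 or, unless blocked (log2 0.97 ± 0.32 SE, edgeR adjusted p = 0.0348) or fitted with only the 2 groups, by day 5. The day 3 fall in Matrigel was lost without mouse 1, 2 or 3, with edgeR adjusted p values of 0.141, 0.147 and 0.107, and was larger without mouse 4 (log2 -1.51, edgeR adjusted p = 0.00229). The day 5 fall was lost without mouse 2 (edgeR adjusted p = 0.0683) or mouse 3 (edgeR adjusted p = 0.252).

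Fbn1, whose fibrillin-1 fibres bind latent TGF-beta, rested on few molecules but was higher in collagen on all 3 days. At day 0 the collagen sums held 70, 11, 29 and 0 UMIs in mice 1 to 4, or 8.44, 2.91, 7.89 and 0 CPM, and the Matrigel sums held 3, 7, 6 and 4 UMIs, or 0.328, 0.967, 0.699 and 0.506 CPM. The groups overlapped through mouse 4, whose 0 UMIs in collagen allow a level of up to 1.03 CPM (3 counts). The difference was 8.07-fold (log2 3.01 ± 0.78 SE, edgeR adjusted p = 0.0251), and 8.30-fold without the 4T1-led cells (edgeR adjusted p = 0.0234). It was lost without mouse 1 (edgeR adjusted p = 0.230), mouse 2 (edgeR adjusted p = 0.147) or mouse 3 (edgeR adjusted p = 0.166).

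At the later days Fbn1 had 9.65, 7.50, 5.44 and 5.91 CPM in collagen against 4.67, 1.12, 2.53 and 0.199 CPM in Matrigel at day 3. At day 5 it had 15.4, 10.2 and 23.3 CPM against 2.15 and 1.45 CPM. No Matrigel value reached the lowest collagen value of its day. With the mouse block Fbn1 was 4.77-fold higher at day 3 (log2 2.26 ± 0.56 SE, edgeR adjusted p = 0.0293) and 7.61-fold higher at day 5 (log2 2.93 ± 0.78 SE, edgeR adjusted p = 0.0334). Without the block the edgeR adjusted p values were 0.286 and 0.196, and the day 5 difference passed when mouse 4 was left out (edgeR adjusted p = 0.0235). Fbn1 stood at 147 CPM in the left-out fibroblast-like cells, so the fibroblast marker ranges given above bear on it too, and their part in it was not tested.

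Cdh2, whose N-cadherin is often exchanged for E-cadherin in EMT, did not pass between gels at any day in any of the fits named here. At day 0 it had 4.34, 2.64, 2.99 and 10.4 CPM in collagen and 5.79, 3.59, 0.582 and 16.3 CPM in Matrigel. At day 3 the values were 11.7, 4.77, 2.25 and 23.9 CPM against 5.26, 3.73, 5.52 and 12.3 CPM, and at day 5 they were 8.36, 11.2 and 3.72 CPM against 6.46 and 7.71 CPM. Mouse 4 had the highest Cdh2 in each of the 4 groups it was in, and the gels overlapped on every day. The gel difference was log2 -0.41 ± 0.77 SE at day 0, 0.52 ± 0.74 SE at day 3 and 0.13 ± 1.01 SE at day 5, with edgeR adjusted p values of 0.803, 0.936 and 0.991. Errors of this size leave differences of several-fold undetectable. Over time the rise in collagen by day 5 passed with the block and not without it (2.56-fold, log2 1.36 ± 0.45 SE, edgeR adjusted p = 0.0343).

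The genes that work with each of the 5 were read from 7 lists, and their medians are set beside the median of all genes tested, which was 0.01 at day 0, -0.01 at day 3 and 0.00 at day 5 on the log2 scale of collagen over Matrigel. Counts of list genes that passed stand against the shares of all genes given above, 7.07%, 0.205% and 0.455% at day 0, day 3 and day 5 without the block and 24.3%, 4.38% and 6.28% with it. Leaving out the 4T1-led cells changed 2 of the list calls made without the block, those of Ltbp3 at day 0, which was lost, and Tagln at day 3, which was gained (edgeR adjusted p = 0.0479 against 0.0560). Of 10 tested intermediate filament and lamina genes, 0 passed between gels without the block on any day, and the list medians were -0.18, 0.09 and 0.41. With the block 3 of the 10 passed at day 0, all lower in collagen, where 24.3% of all genes passed, so the count is close to that of genes in general. They included the keratins Krt8 (log2 -0.76 ± 0.17 SE, edgeR adjusted p = 0.00533) and Krt18 (log2 -0.48 ± 0.12 SE, edgeR adjusted p = 0.00970), partners in simple epithelial filaments. At day 5 with the block 2 were higher and 1 lower. Plec, whose plectin links vimentin to other structures, was higher (141 ± 7.47 against 58.3 ± 8.90 CPM, log2 1.31 ± 0.19 SE, edgeR adjusted p = 0.00116), and Synm, which co-assembles with vimentin, was lower (2.48 ± 0.67 against 12.1 ± 6.70 CPM, log2 -2.37 ± 0.52 SE, edgeR adjusted p = 0.0137).

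Among the receptors and cross-linkers of fibronectin, 10 of 12 genes could be tested, and their median gel difference was 0.26, 0.74 and 1.23 at day 0, day 3 and day 5. Without the block 1 was higher and 1 lower at day 0, none passed at day 3, and 2 were higher at day 5. Mmp14, a membrane-bound protease that cleaves fibronectin and collagen, was higher at day 0 (79.8 ± 20.7 against 31.9 ± 14.4 CPM, log2 1.32 ± 0.37 SE, edgeR adjusted p = 0.0370). Sdc4, a fibronectin co-receptor, was lower (454 ± 48.4 against 691 ± 57.2 CPM, log2 -0.61 ± 0.15 SE, edgeR adjusted p = 0.0231). At day 5 the integrin chains Itga5 (19.2 ± 3.23 against 2.28 ± 0.18 CPM, log2 3.08 ± 0.51 SE, edgeR adjusted p = 0.0109) and Itgav (51.9 ± 0.93 against 24.0 ± 1.27 CPM, log2 1.11 ± 0.18 SE, edgeR adjusted p = 0.0109) were higher in collagen, with 3 and 2 mice. With the block 2 of the 10 were higher and 2 lower at day 0, 3 were higher at day 3 and 7 at day 5, where 24.3%, 4.38% and 6.28% of all genes passed. When 1 mouse was left out these 4 calls without the block held in 1 of 4 fits each: the call of Mmp14 only without mouse 3, and those of Sdc4, Itga5 and Itgav only without mouse 4.

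Of the galectins and their ligands, 8 of 10 were tested and 2 were higher in collagen at day 0, with none passing later. They were Lgals3bp, a secreted galectin ligand (28.0 ± 8.06 against 5.06 ± 1.04 CPM, log2 2.47 ± 0.43 SE, edgeR adjusted p = 0.00258), and Lgals9 (33.7 ± 12.0 against 11.3 ± 5.53 CPM, log2 1.58 ± 0.44 SE, edgeR adjusted p = 0.0354). Macrophages express both galectin-9 and the ligand, and the macrophage marker sums above were also higher in collagen at day 0; their part was not tested. The call of Lgals3bp held when any 1 mouse was left out, and that of Lgals9 only without mouse 4. With the left-out macrophage-, fibroblast- and T and NK-like cells put back, Lgals3bp differed by log2 0.92 (edgeR adjusted p = 0.256) and Lgals9 by log2 1.48 (edgeR adjusted p = 0.0512), and neither passed. With the block Lgals3, the galectin-3 gene, was lower at day 0 (971 ± 299 against 1558 ± 236 CPM, log2 -0.76 ± 0.21 SE, edgeR adjusted p = 0.0163). The list medians were 0.01, 0.35 and 0.15.

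The fibrillin list, microfibril and elastic fibre genes, had 13 of 17 genes tested and medians of 1.08, 1.03 and 1.06. Without the block 2, 1 and 1 genes were higher at day 0, day 3 and day 5, and none lower. Fbln2, whose fibulin-2 binds fibrillin-1 and fibronectin, passed on all 3 days, with 161 ± 26.7 against 80.8 ± 13.5 CPM at day 0 (edgeR adjusted p = 0.0114), 338 ± 77.7 against 118 ± 25.2 CPM at day 3 (edgeR adjusted p = 0.00318) and 445 ± 120 against 165 ± 60.4 CPM at day 5 (edgeR adjusted p = 0.0388). It passed on each day without the 4T1-led cells too, but its day 0 call was lost without mouse 1 or 2, its day 3 call without mouse 1 and its day 5 call without mouse 1, 2 or 3. Ltbp3, a latent TGF-beta binding protein, passed at day 0 (log2 0.91 ± 0.26 SE, edgeR adjusted p = 0.0397), but not without the 4T1-led cells (edgeR adjusted p = 0.0864) or without mouse 1, 2 or 3. With the block 4 of the 13 were higher at day 0, 3 at day 3 and 3 at day 5, with 1 lower, where 24.3%, 4.38% and 6.28% of all genes passed.

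Cadherins and catenins, the group in which an exchange of Cdh1 for Cdh2 would appear, had 9 of 9 genes tested and 0 called without the block on any day, with medians of -0.05, -0.03 and 0.07. With the block Cdh1, the E-cadherin gene, was lower in collagen on each day, at 76.1 ± 17.5 against 127 ± 43.8 CPM at day 0 (log2 -0.71 ± 0.11 SE, edgeR adjusted p = 0.00038), 49.7 ± 17.5 against 67.1 ± 17.4 CPM at day 3 (edgeR adjusted p = 0.0344) and 44.6 ± 10.1 against 71.9 ± 7.60 CPM at day 5 (edgeR adjusted p = 0.0129). No rise of Cdh2 was called beside it. The catenin Ctnna1 was also lower at day 0, and Cdh13, the T-cadherin gene, was higher at day 3 (log2 1.74 ± 0.41 SE, edgeR adjusted p = 0.0228).

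The 10 EMT transcription factors had 0 calls without the block, and medians of 0.61, 0.85 and 0.65. With the block Prrx1 and Tcf4 were higher at day 0 and Zeb2 at day 3 (28.7 ± 5.09 against 11.7 ± 5.70 CPM, log2 1.29 ± 0.26 SE, edgeR adjusted p = 0.0105), and none passed at day 5. Of 16 other mesenchymal and matrix genes 13 were tested, with medians of 1.09, 1.58 and 3.17, and 1 passed without the block, Postn at day 3 (38.5 ± 21.4 against 1.36 ± 0.67 CPM, log2 4.98 ± 0.93 SE, edgeR adjusted p = 0.0275), which was lost without mouse 1, 2 or 4. Its periostin is a matrix protein of fibroblasts and of contractile basal cells. With the block 7, 6 and 8 of the 13 were higher and none lower at day 0, day 3 and day 5, where 24.3%, 4.38% and 6.28% of all genes passed in either direction. At day 5 these included the actin-binding Tagln (168 ± 148 against 1.01 ± 0.75 CPM, edgeR adjusted p = 0.00173) and the hyaluronan receptor gene Cd44 (254 ± 24.6 against 108 ± 21.1 CPM, edgeR adjusted p = 0.00472). Several list members are expressed by fibroblasts, whose marker sums were given above.

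To see how many cells carried each gene, every cell was thinned to 2000 UMIs, and shallower cells were left out. In the sums these were 84, 11 and 1 in collagen and 139, 19 and 1 in Matrigel (day 0, day 3 and day 5). Vim was found in 16.4 ± 4.84% of cells in collagen and 9.69 ± 2.84% in Matrigel at day 0, 32.6 ± 15.5% and 13.6 ± 2.72% at day 3, and 50.3 ± 10.7% and 18.9 ± 3.78% at day 5 (mean ± SD over mice). The day 0 shares without the 4T1-led cells were 13.7 ± 4.75% and 8.90 ± 2.51%. In that count mouse 2 went the other way, with 7.87% in collagen against 8.86% in Matrigel. With all kept cells the share was higher in collagen in 4 of 4, 3 of 4 and 2 of 2 mice. The exact two-sided permutation p values were 0.0571, 0.0857 and 0.2, which became 0.273 each after adjustment over the 15 tests, and the smallest p the design allows is 0.0286 with 4 mice against 4 and 0.2 with 3 against 2. No share of the 5 genes passed after adjustment.

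Fn1 was found in 37.7 ± 6.35% against 44.3 ± 6.69% of thinned cells at day 0, 44.6 ± 10.4% against 24.9 ± 16.0% at day 3 and 48.0 ± 6.48% against 13.2 ± 3.45% at day 5, collagen first. Lgals1 was found in 47.7 ± 7.10% against 28.3 ± 8.14%, 87.2 ± 5.49% against 72.2 ± 13.6%, and 84.1 ± 3.04% against 64.7 ± 11.2%. Fbn1 and Cdh2 were found in at most 4.04% of the cells of any sum. None of the other named cell types lacks Vim or Lgals1, so no background share can be given for these, while at day 0 Fn1 was found in 2.92% of macrophage-like cells and Epcam in 5.26%, at a median of 13676.5 UMIs against 15383 in the kept cells. Macrophage-like cells held 1 UMI each of Fbn1 and Cdh2 in 226 cells.

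**Figure D3:**
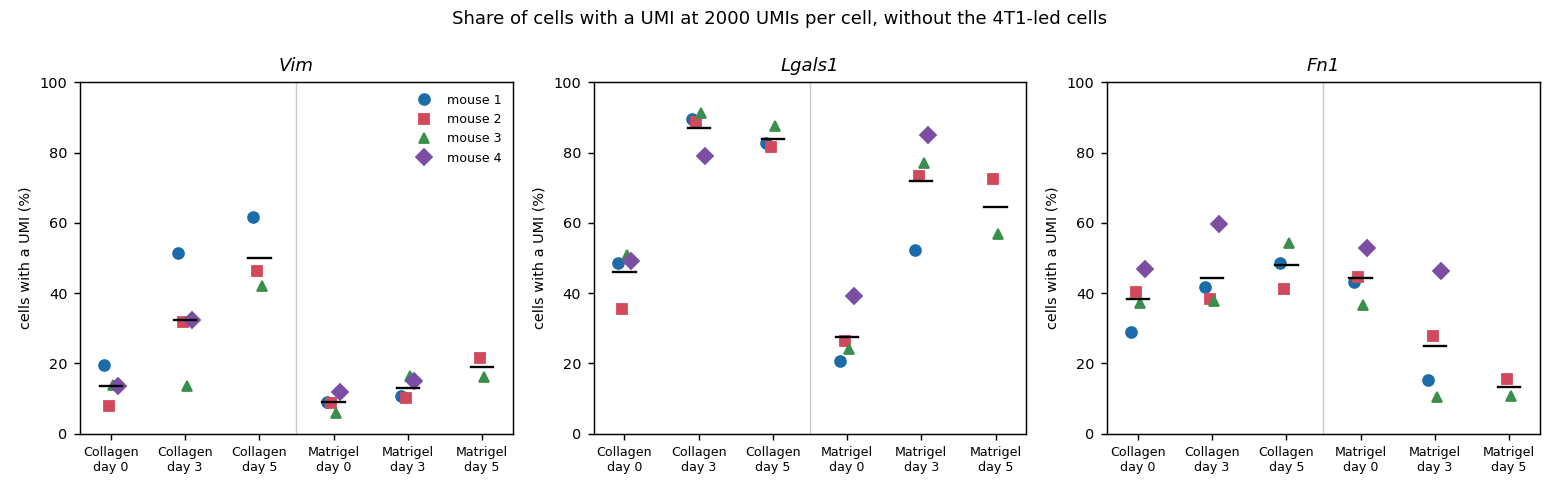
Points give the percent of cells with at least 1 UMI of Vim, Fn1 or Lgals1 after thinning to 2000 UMIs per cell, by gel and day without the 4T1-led cells, 1 marker per mouse. Vim in collagen spread from 13.7% to 51.4% over mice at day 3, while in Matrigel it lay between 10.2% and 16.3%.

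Whether the genes were found in the same cells was read from the thinned cells without the 4T1-led ones, by setting the number of cells with both genes beside the number that independence within each mouse would give. Cells of 1 mouse share their library and clusters, so these ratios are descriptions and carry no test. Vim and Fn1 were found together in 373 collagen cells at day 3, against 294 under independence, a ratio of 1.27 that was over 1 in 4 of 4 mice. The ratio was 1.27 at day 5 and 1.35 at day 0 in collagen. At day 0 mouse 2 went the other way, with Fn1 in 28.6% of cells with Vim and 41.5% of those without. In Matrigel it was 1.01 at day 0 and 1.13 at day 3. Vim and Lgals1 were found together more often at day 0, with ratios of 1.43 in collagen and 1.41 in Matrigel, and near independence later, when Lgals1 was in most cells.

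The rarer pairs are given for collagen only, whose sums held more cells (2477 against 687 in Matrigel at day 3 and 1064 against 89 at day 5). These counts therefore do not compare the gels. Vim and Fbn1 shared 34 cells at day 3 against 16.2 under independence, and 25 against 13.4 at day 5. Vim and Cdh2 shared 19 against 8.62, and 9 against 5.49. In contrast, Vim and epithelial genes shared fewer cells in collagen than independence gives when the mice of a day were pooled. In collagen the ratios at day 0, day 3 and day 5 were 0.81, 0.72 and 0.76 with Epcam, 0.79, 0.79 and 0.78 with Krt8, and 0.79, 0.56 and 0.66 with Cdh1. With Krt14, a basal keratin, they were 0.87, 0.79 and 0.77. At day 0 in collagen single mice went the other way. Cdh1 was found in 3.2% of cells with Vim and 19.6% without in mouse 1. In mice 2, 3 and 4 it was found in 28.6, 13.6 and 34.8% with Vim and 18.9, 11.7 and 23.3% without. Krt14 and Krt8 were also found more often with Vim in mice 2 and 4 at that day. In Matrigel at day 0, Epcam was found in 90.0, 85.7, 95.5 and 88.7% of cells with Vim in mice 1 to 4. In cells without Vim it was found in 94.1, 92.4, 92.4 and 97.1%, so mouse 3 went the other way. At day 3 in Matrigel the shares were 60.0, 46.7, 70.6 and 80.4% with Vim and 87.8, 85.6, 77.0 and 92.7% without. Cells with both still occurred, 413 with Vim and Epcam and 344 with Vim and Krt14 among 2456 collagen cells at day 3.

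As a share of cells, those with Vim and Fn1 made up 18.6 ± 8.80% in collagen and 4.86 ± 2.39% in Matrigel at day 3 without the 4T1-led cells, and those with Vim and Lgals1 made up 29.5 ± 14.99% and 10.8 ± 1.97% (SD, n = 4 each). For both pairs the gels did not overlap and the exact permutation p was 0.0286, the smallest that 4 mice against 4 can give, or 0.214 after adjustment over 15 tests. At day 5 the shares were 29.3 ± 6.67% against 6.01 ± 2.96% and 46.2 ± 9.98% against 9.94 ± 2.59%.

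**Figure D4:**
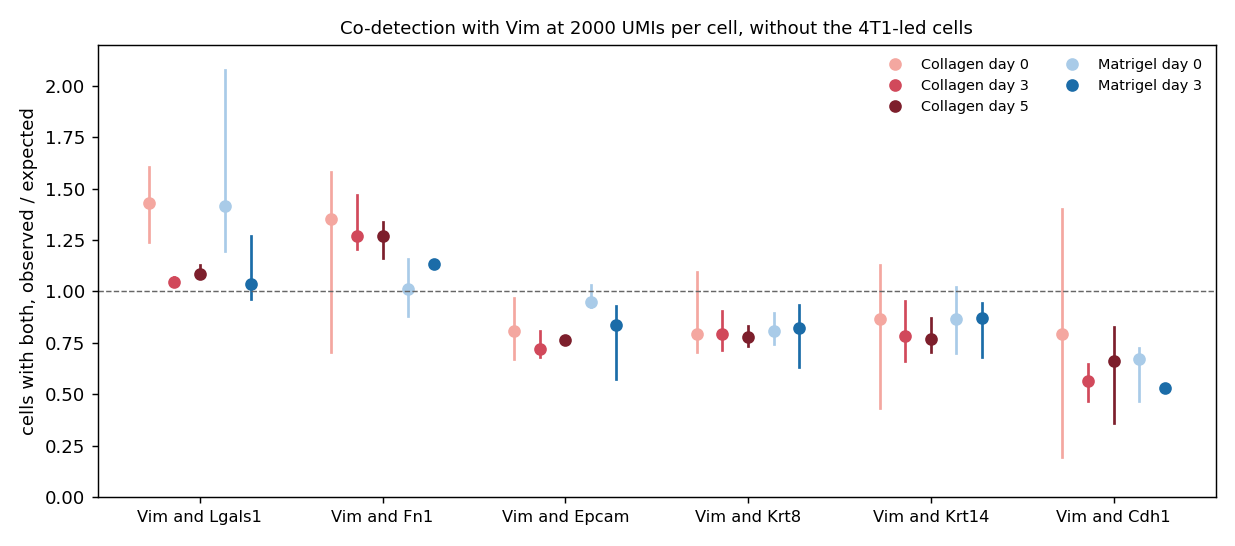
Points give, for Vim with each partner gene, the cells with both over the number under independence within mice (axis from 0, dashed line at 1), by gel and day, without the 4T1-led cells. Fn1 and Lgals1 lie at or above 1 in the collagen groups (1.27 for Vim and Fn1 at day 3), and the epithelial genes below it (0.56 for Cdh1 at day 3).

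Cells with a Vim UMI were also compared with those without one inside each sum, again as a description. Each value here is the median over the 21 sums of the mean UMIs per thinned cell. Lgals1 stood at 2.79 in cells with Vim and 1.60 in those without, and was higher with Vim in 20 of 21 sums. Fn1 stood at 1.09 against 0.73 and was higher in 16. Fbn1 (0.0164 against 0.0022) and Cdh2 (0.0159 against 0.0052) were higher in 11 and 10 sums. Of the list genes, 3 were higher in the most sums. Sparc, a secreted matrix protein gene, stood at 0.625 against 0.255 (19 of 21), Fbln2 at 0.429 against 0.336 (18 of 21) and the calcium-binding S100a4 at 0.127 against 0.0488 (18 of 21). Other list genes did not follow, such as Cd44 at 0.435 against 0.442 (10 of 21), Tgfbi at 0.0136 against 0.0159 (6 of 21) and Twist1 at 0.0333 against 0.0385 (11 of 21). The contractile genes Acta2 (0.115 against 0.013) and Tagln (0.0435 against 0.0084) were higher in 12 and 11 sums. Going the other way, Epcam stood at 2.22 against 3.85, Krt8 at 1.29 against 2.21 and Krt18 at 2.11 against 3.41, each higher with Vim in 3 sums. The basal keratin gene Krt5 did not go this way, at 0.293 with Vim against 0.153 without (higher in 12 sums).

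Among the kept cells the clusters with the most Vim outside the 4T1-led cells had unlike leading genes. Whether each of these clusters is made of tumour cells was not tested. Cluster 10 (389 cells, led by BC100530, Stfa3 and Cxcl3, 92.0% from collagen) had 1689 CPM of Vim, found in 70.1% of its thinned cells, with 1011 CPM of Fn1, 27.8 of Fbn1, and Epcam at 408. Cluster 6 (441 mouse-labelled cells, led by Klk8, 95.5% from collagen) had 982 CPM of Vim but only 312 of Fn1. Cluster 14 (290 cells, led by Acta2, Krt5 and Tagln, 90.0% from collagen) had 805 CPM of Vim in 57.8% of its cells, with Krt14 at 7894 and Fn1 at 169 CPM, and it held the highest Cdh2 (40.0 CPM) and, after the fibroblast-like cells, the highest Fbn1 (38.9 CPM) of the 24 clusters. Low Vim went with Epcam in cluster 18 (195 cells, 3.08% from collagen), where Vim was at 46.8 and Epcam at 4193 CPM.

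Cdh2 above 14 CPM was otherwise found in clusters 5, 8 and 20, at 14.2, 14.3 and 17.1 CPM, and in the fibroblast-like cells at 25.5 CPM. Single mice gave 72.5%, 69.0% and 95% of the cells of clusters 5, 8 and 20, and 68.3% of those of cluster 14. Cluster 15, with 546 CPM of Vim and 23.9 of Fbn1, was 96.5% from 1 mouse. Clusters were made from all other variable genes of these cells, so these levels are descriptions.

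**Figure D5:**
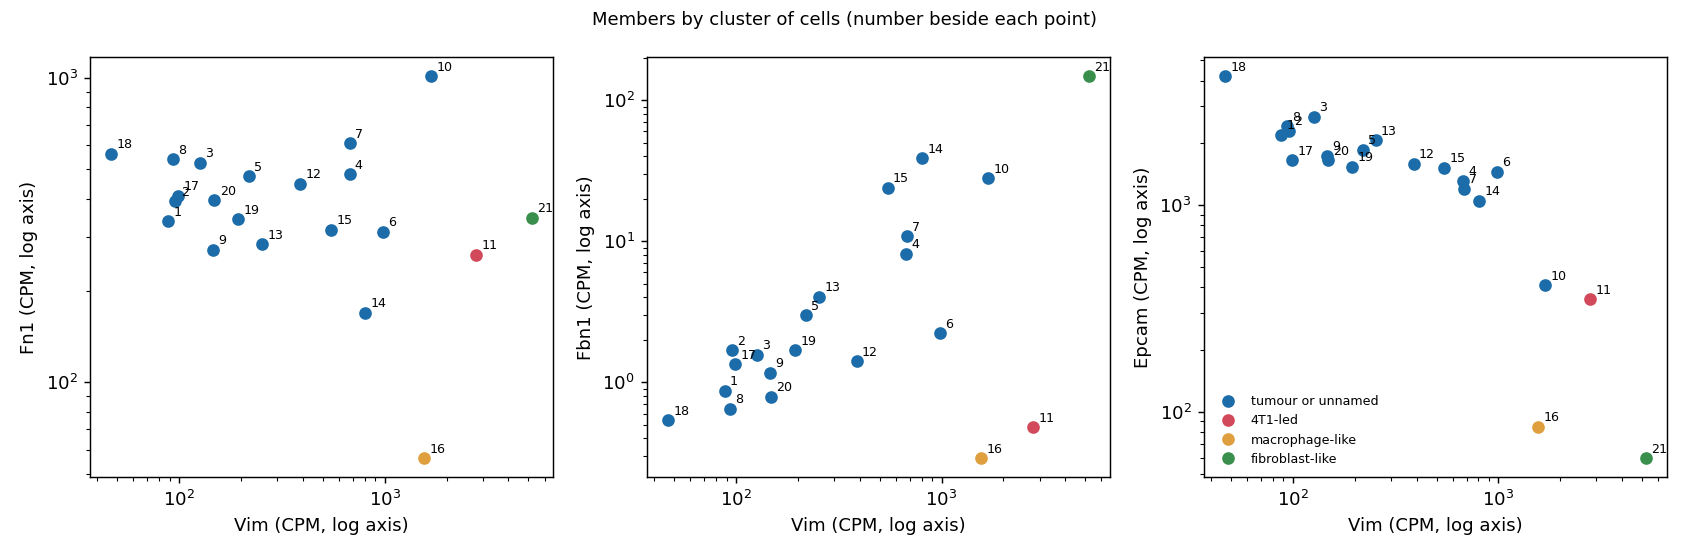
Each point is 1 cluster, with Vim in CPM on the x axis and Fn1, Fbn1 or Epcam in CPM on the y axis (log axes). Points are coloured by the kind of cell, and the small clusters 22, 23 and 24 (39, 29 and 29 cells) are not drawn. Cluster 10 stands high for Vim and Fn1 (1689 and 1011 CPM) and cluster 14 high for Fbn1 but low for Fn1 (169 CPM). The 4T1-led cluster 11 stands high for Vim (2791 CPM) with Epcam at 351 CPM.

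The 4T1 reference cells had a pattern of their own. Vim stood at 3652, 2147 and 2518 CPM in the 98, 196 and 19 cells of day 0, day 3 and day 5, and was found in 92.9%, 83.5% and 84.2% of thinned cells (exact binomial 95% intervals 85.8 to 97.1%, 77.5 to 88.4% and 60.4 to 96.6%). Lgals1 stood at 7911, 6464 and 8494 CPM and was found in every thinned cell. Fn1 was at 263, 247 and 305 CPM, in 36.7%, 41.2% and 31.6% of cells. Fbn1 had 10 UMIs and Cdh2 2 UMIs in all 313 cells. The pooled kept cells without the 4T1-led ones had 112, 491 and 833 CPM of Vim, 292, 1883 and 1848 CPM of Lgals1 and 423, 357 and 594 CPM of Fn1 on the 3 days. Vim was below the 4T1 level of its day in each of the 21 sums. Fn1 had no single order, since 3 of the 4 Matrigel sums at day 3 and both at day 5 lay below the 4T1 level, while all collagen sums of those days lay above it. The line has 1 library per day and the intervals cover counting error only, so these are levels with no test. In 4T1 the ratio of cells with both Vim and Fn1 to independence was 1.08, 0.99 and 0.99.

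Over the 21 sums, the genes whose CPM ranked most like Vim were Tuba1a, P4ha1, Cnn2, Igf2bp2 and Serpinh1 (Spearman rho 0.87, 0.86, 0.84, 0.83 and 0.83 among 6018 genes). With the 4T1-led cells left out they were Cyb5r3, Nt5dc2, Frmd8, Stx4a and Aldoa (0.88, 0.87, 0.87, 0.87 and 0.87). No gene was in both lists of 5. The sums share mice, pools and depth, so these values are descriptions. Fn1 ranked most like Fstl1, Cavin2 and Actb (0.83, 0.80 and 0.78), Lgals1 like Crip1, Elk3 and Rab34 (0.88, 0.87 and 0.85), Fbn1 like Slc16a3 and Serpinh1 (0.87 and 0.84) and Cdh2 like Evl, Ppic and Cd34 (0.84, 0.84 and 0.84). Among the 5 themselves, leaving out the 4T1-led cells moved Vim and Lgals1 from 0.62 to 0.84 and Vim and Fbn1 from 0.58 to 0.80, and moved Vim and Fn1 from 0.48 to 0.26.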

How the data were processed

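Single-cell RNA libraries (10x 3′ v2 with MULTI-seq barcodes, per the labels' protocols) were made from 3 pools, 1 per day. The deposited table holds raw UMI counts per cell and gene, with no normalization. The submitters' processing notes name the tools Cell Ranger 3.0.2 and Scanpy 1.4.4, and GRCm38, or mm10, as build. The deposited cell annotation gives day, gel and mouse of each cell, its total counts and its mitochondrial share as a fraction computed by the authors. Its first day is written otherwise than in the labels and was taken as day 0, which is an inference. The pools shared 7, 4 and 0 cell barcodes (day 0 with 3, day 3 with 5, day 0 with 5). All columns of sample values were used, and no doublet caller was run.

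Counts were scaled to 10000 per cell and clustered on 2000 variable genes without the 5 genes (Scanpy 1.11.5, 30 components, 15 neighbours, Leiden resolution 1). Clusters led by markers of macrophages, fibroblasts or T and NK cells were removed, and the rest summed per mouse, gel and day (at least 20 cells). Sums were fitted over 6 groups and 11 comparisons with edgeR 4.0.16 (TMM scaling, its own filter on low counts, quasi-likelihood test, Benjamini-Hochberg over all genes, threshold 0.05, R 4.3.3), after tests on simulated counts. The main model had no mouse term; since the same 4 animals gave both gels, a mouse block was added. After removal of group means, sums of 1 mouse correlated at a median of 0.305 (0.072 to 0.685) and those of other mice at -0.108, and for 21 of 21 sums the highest correlation was with the same animal. Nothing says that a mouse's cells were more than 1 culture. Shares used exact two-sided permutation tests over mice, adjusted over 15 tests, and intervals are exact at the 95% level. Alternatives were DESeq2 1.42.0, limma 3.58.1, other scalings, filters and cell sets, and each mouse left out. Removing the 4T1-led cells together with the mouse block, with each mouse left out or in the counts of cells with 2 genes, and removing clusters of few UMIs, were chosen after seeing the data.

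Named genes are the 5, up to 4 of each list with the smallest p among those called between gels, the 5 genes most like Vim and 3 most like each other gene by Spearman correlation (mean of at least 20 CPM, without predicted, mitochondrial and ribosomal genes), and defining markers of other cells. Of the genes so named, 2 are not reported here. The 5 genes, lists and rules were chosen with earlier results of these data known. No sequence is shown.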

Additional observations from a re-analysis of the deposited data

Results flagged for a closer look

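Each mouse was compared with the others of its group in 80 sets of values (20 groups of 4, each for levels and shares of cells, with and without the 4T1-led cells), and 5 stood apart by the Dixon ratio, where chance gives about 1 in 20. Mouse 4 had 13.94 CPM of Cdh2 in collagen at day 0 without the 4T1-led cells, against 2.94 to 4.69 CPM in the other mice. In Matrigel at day 3 it had Cdh2 in 2.16% of thinned cells, with and without the 4T1-led cells, and the other 3 mice had it in none. Mouse 2 had Lgals1 in 37.16% of thinned cells in collagen at day 0, against 49.85% to 52.22% in the others, and in 35.39% against 48.61% to 50.94% without the 4T1-led cells.

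For Fn1 the collagen against Matrigel difference itself differed between days by edgeR's interaction term with the mouse block. The log2 change from day 0 to day 3 was 1.608 (edgeR adjusted p = 0.0365) and from day 0 to day 5 it was 2.472 (edgeR adjusted p = 0.00617). Without the 4T1-led cells these were 1.611 (edgeR adjusted p = 0.0343) and 2.466 (edgeR adjusted p = 0.00571).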

How the results depend on the processing

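Values are log2 of collagen over Matrigel or of the later over the earlier day unless named as points. For Vim at day 0 (1.90 as reported) the call was lost without the 4T1-led cells (1.164), without the deepest cells (1.191), with the mouse block and without the 4T1-led cells (1.102), with only the 2 groups fitted (1.911) and with limma on mean log values of cells (0.267), and leaving out 1 mouse, with or without the 4T1-led cells, gave 0.809 to 2.101. At day 3 the call appeared with the block (1.652, and 1.652 without the 4T1-led cells as well) and in DESeq2 (1.854). At day 5 it appeared with the block (2.023, and 1.873 without the 4T1-led cells), with sums of 10 cells (2.64), in DESeq2 (2.224) and in limma (1.264).

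The time changes of Vim turned on the 4T1-led cells. The fall by 0.288 by day 3 in collagen reversed to 2.118 without those cells, 2.069 without the deepest cells, 0.569 when cells with marker UMIs were dropped, 2.037 with the block and without the 4T1-led cells, and 0.686 in limma, with -0.947 to 2.353 when 1 mouse was left out. In Matrigel the same settings turned the fall by 0.25 by day 3 into 1.358, 1.525, 1.313, 1.487 and 0.119, with -0.572 to 1.647. By day 5 the collagen change (0.54 as reported) passed at 2.895, 2.902, 2.836 and, in limma, 1.574, with -0.019 to 3.094, and the Matrigel change was -0.184 with sums of 10 cells. The change of the Vim gel difference to day 3 moved from -0.04 to 0.003 without the filter, 0.76 without the 4T1-led cells, 0.544 without the deepest cells, 0.55 with the block and without the 4T1-led cells and 0.567 in limma, with -0.811 to 1.37.

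No value of Fn1, Lgals1 or Fbn1 from edgeR, DESeq2 or limma changed sign under the alternatives run. Cdh2, which passed in no gel comparison, changed sign at day 5 with the block (-0.2, and -0.184 without the 4T1-led cells), without the deepest cells (-0.098) and with sums of 10 cells (-0.021), and ranged from -0.379 to 0.663 at day 5 and from -0.625 to 0.092 at day 0 with 1 mouse left out. Among shares, the Vim gap at day 0 was 7.349 and 9.595 points at 1000 and 5000 UMIs per cell and 7.931 points with all mouse-labelled cells, and at day 3 it was 16.102 points for at least 2 UMIs. Signs changed for Lgals1 at day 5 without thinning (-0.29 points), Fbn1 at day 3 with 1000 UMIs (-0.135) and at day 5 with 1 mouse left out (-0.739 to 2.518), and Cdh2 at day 0 with 1000 and 5000 UMIs (0.152, 0.466) or 1 mouse left out (-0.375 to 0.251) and at day 5 with 1000 UMIs (-2.446) or none (-4.938).

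Over all genes, the calls between gels at day 0, day 3 and day 5 numbered 932, 27 and 60, and with the mouse block 3204, 577 and 828. They were 1424, 180 and 264 in DESeq2, 271, 14 and 296 in limma and 299, 0 and 66 with only the 2 groups fitted, where 0 stands beside 934 genes at an unadjusted p under 0.05. Sums of 10 cells gave 936, 31 and 191, and cells without marker UMIs 455 and 5, with no day 5 fit because too few cells were left. Of 1591 alternative values of 97 results, 1231 kept their side of the threshold and sign, 115 lost and 195 gained a call, and 50 changed sign. Apart from the calls named here and beside the results, the mouse block changed no call of the 5 genes. With 2 mice in Matrigel at day 5, a fit without 1 of them leaves a lone sum that is assumed to vary like the others, and depth limits Fbn1 and Cdh2, some of whose sums held under 10 UMIs.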
